A study of Mus musculus with 6 samples.

Results

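The receptors described here are Pgr, Esr1, Nr3c1 and Nr3c2, the genes of the progesterone receptor, estrogen receptor alpha, the glucocorticoid receptor and the mineralocorticoid receptor. They are 4 of the 22956 genes counted in mouse aortic smooth muscle samples labelled as wild type or as miR-21 knockout, found in the table by symbol. The receptors were chosen by earlier results of these same counts, so their differences between genotypes are given as descriptions, with standard errors and no test. Pgr was higher in all 3 knockout libraries than in all 3 wild-type libraries, by 0.58 ± 0.09 on the log2 scale (SE), or 1.5-fold. The groups overlapped for Esr1, Nr3c1 and Nr3c2.

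Steroid receptors are transcription factors held by heat shock chaperones until a hormone binds, after which they bind DNA, often as dimers, and recruit coregulators. In arteries the glucocorticoid and mineralocorticoid receptors are known for their part in vascular tone and remodelling, and estrogen receptor alpha for its part in the response to injury. Pgr is a classic estrogen-induced gene. A microRNA such as miR-21 lowers messages whose 3′ untranslated region (UTR) pairs with its seed, bases 2 to 8 of the mature strand.

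All 6 samples were labelled as smooth muscle cells from the aorta. The C57B6 mice were 30 weeks old and had eaten a western diet, which is rich in fat, for 20 weeks. The 3 wild-type (WT) samples had the genotype WT with mTmG and Myh11ERT2. The 3 knockout samples had miR-21fl/fl with the same mTmG and Myh11ERT2. mTmG is a reporter that changes colour in cells where Cre has acted. Myh11 is a smooth muscle promoter, and ERT2 names, as background, a mutated ligand-binding part of the human estrogen receptor that makes a Cre recombinase respond to tamoxifen. Both groups carried it, and whether any of its reads were counted as Esr1 was not tested. The dose and time of induction stand as not given in the sources used here. No label says whether replicates came from separate animals, so errors and p-values cover the spread between these libraries alone, which may be technical.

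Library totals ran from 37787465 to 154384307 estimated counts, with WT 3 the deepest. Levels are given as CPM, counts scaled to the size of the library with TMM factors. The level of miR-21 was not analysed here, so the knockout labels were not checked against it. Smooth muscle messages dominated the marker lists, and 11 of 11 smooth muscle markers passed the low-count filter. Their summed level ran from 28163 to 41839 CPM in the WT libraries and from 33358 to 43613 CPM in the knockout libraries. The 9 fibroblast markers summed to 3194 to 6944 CPM in the WT libraries and to 1532 to 5649 CPM in the knockout libraries, lowest in knockout 2 and knockout 3. Lum and Dcn made up most of the fibroblast sum, with 4108 and 2007 CPM in WT 1. Endothelial markers summed to 94.3 to 109 CPM, macrophage markers to 6.59 to 30.7 CPM and lymphocyte markers to at most 1.34 CPM. Most of the endothelial sum was Pecam1 and Esam, with WT means of 59.1 and 33.1 CPM. In bulk samples, fewer cells of a type and less RNA per cell cannot be told apart.

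The 3′ UTR of Pgr carried a match to the miR-21 seed, which is the reason its sequence is shown with that of the microRNA. The mature strand of miR-21a-5p lies on chromosome 11 from 86584120 to 86584141, minus strand (RefSeq, GRCm38.p6), with seed bases 2 to 8 in capitals below. The Pgr window lies at chr9:8967424-8967453, plus strand (GRCm38, the assembly of mm10), in exon 8 of 8. Its capitals mark the 7 bases ATAAGCT that pair with the seed.
miR-21a-5p: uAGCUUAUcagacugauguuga
Pgr site: aaatcatatgaATAAGCTttaatagaaact

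The Pgr site began 2297 bases after the stop codon in a UTR of 3473 bases. It was a 7-base match without the adenine that extends the longer match ATAAGCTA. Of the 3 annotated Pgr 3′ UTRs, 1 holds the site, and the counts are per gene, so the transcripts with and without it cannot be told apart. ATAAGCT on the sense strand was present in 1080 of 15278 3′ UTRs searched (7.07%). Among the 1424 UTRs within 20% of the length of Pgr's, 237 held it (16.6%). A match is a description of the letters and not evidence of binding.

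No ATAAGCT was found in any annotated 3′ UTR of the other receptors. The UTRs used were 4191 bases for Esr1, 3937 for Nr3c1 and 2482 for Nr3c2. Nr3c1 held 1 copy of TAAGCTA, another 7-base match that 6.75% of all 3′ UTRs contain, 1752 bases after its stop codon in exon 9 of 9. It pairs with bases 2 to 7 and ends in an adenine, and it is part of the longer match ATAAGCTA, found in 2.12% of UTRs. Pgr was thus the only member of the 4 with the match to seed bases 2 to 8 in the annotation used. That Pgr carries a miR-21 site was known when the receptors were chosen, so this is a description.

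Pgr (chromosome 9, 8899833 to 8968611, plus strand) had 18.4, 16.9 and 18.4 CPM in WT 1, 2 and 3. It had 25.4, 29.6 and 25.5 CPM in knockout 1, 2 and 3. The lowest knockout library stood above the highest WT library, and knockout 2 was the highest of all. The WT mean was 17.9 ± 0.871 CPM and the knockout mean 26.8 ± 2.38 CPM (SD over n = 3). These levels rested on 689 to 2839 estimated counts a library in WT and 947 to 1834 in the knockout.

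The log2 fold change of Pgr, knockout over WT, was 0.58 ± 0.09 (SE). It ran from 0.51 to 0.62 when each library was left out in turn and from 0.55 to 0.58 over the other settings. Of the 4 receptors, 1 had every knockout library above every WT library, while 6.48% of the 16654 tested genes did. Since the receptors were selected on these values, nothing is read from that count. Among the 33 nuclear receptor genes tested, none had a larger log2 fold change than Pgr. Among all 16654 tested genes 408 did, of which 9 were among the 6744 genes with at least the mean level of Pgr. These ranks come from the values used in the selection, so nothing is read from them either.

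Ratios between receptors within a library do not depend on how libraries are scaled, and they describe the same contrast. The ratio of Pgr to Esr1, each as CPM per kilobase (kb) of exon, took 0.488, 0.519 and 0.502 in WT 1, 2 and 3 against 0.825, 0.804 and 0.655 in knockout 1, 2 and 3. The ratio of Pgr to Nr3c2 took 0.723, 0.492 and 0.736 in the WT libraries against 0.893, 0.770 and 0.892 in the knockout libraries. Each of these ratios was higher in every knockout library than in every WT library.

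Esr1 (chromosome 10, 4611593 to 5005614, plus strand), whose protein binds estradiol, had 60.3, 52.1 and 58.7 CPM in WT 1, 2 and 3. It had 49.2, 58.8 and 62.2 CPM in knockout 1, 2 and 3. The knockout group held both the lowest and the highest of the 6 libraries, so the groups overlapped over their whole range. The log2 fold change was -0.01 ± 0.10 (SE), and its sign was not fixed, running from -0.08 to 0.08 as each library was left out.

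Nr3c1 (chromosome 18, 39410545 to 39491301, minus strand), whose protein binds corticosterone in mice, had 178, 206 and 193 CPM in WT 1, 2 and 3. It had 196, 216 and 199 CPM in knockout 1, 2 and 3. Knockout 2 was highest and WT 1 lowest, and WT 2 lay above knockout 1 and 3. The log2 fold change was 0.08 ± 0.08 (SE), with a range of 0.03 to 0.13 as each library was left out.

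Nr3c2 (chromosome 8, 76899442 to 77245012, plus strand), whose protein binds aldosterone and also glucocorticoids, had 19.3, 26.0 and 19 CPM in WT 1, 2 and 3. It had 21.5, 29.1 and 21.7 CPM in knockout 1, 2 and 3. WT 2 and knockout 2 stood above the other libraries of their groups, and the groups overlapped. The log2 fold change was 0.17 ± 0.17 (SE), falling to 0.01 without knockout 2 and reaching 0.33 without WT 2. The SD of Nr3c2 was 18.6% of its mean in WT and 18% in the knockout, against 4.86% and 8.87% for Pgr. Esr2, the gene of estrogen receptor beta, was not analysed here.

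**Figure D1:**
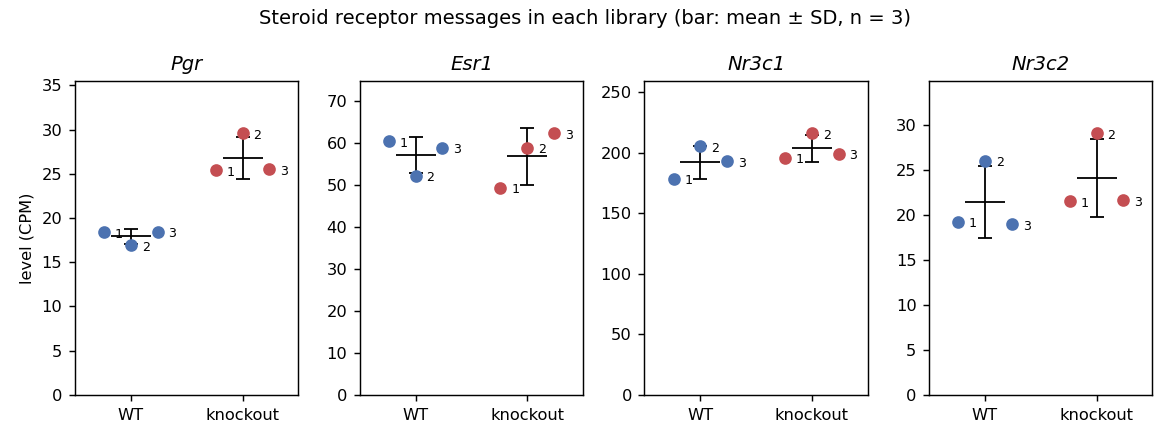
Level of each receptor message in CPM (vertical axes, each from 0) for the 3 WT and 3 knockout libraries, with points numbered by replicate and bars for the mean ± SD. Pgr is the receptor of the 4 whose knockout libraries, 25.4 to 29.6 CPM, all lie above its WT libraries, 16.9 to 18.4 CPM.

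Per exon length, the glucocorticoid receptor message was the most abundant of the 4. Nr3c1 averaged 25.8 ± 1.65 CPM per kb of exon (SD, n = 6 libraries), with 23.2 in the lowest library. Esr1 followed at 4.17 ± 0.370 CPM per kb. Nr3c2 stood at 3.52 ± 0.617 CPM per kb and Pgr at 2.62 ± 0.601 CPM per kb. The SD of Pgr here includes both genotypes.

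The ranges of Esr1 (3.60 to 4.55 CPM per kb) and Nr3c2 (2.93 to 4.49 CPM per kb) overlapped, and Esr1 was the higher in 4 of 6 libraries, so their order was not fixed. Nr3c2 and Pgr also overlapped in range, though Pgr was the lower in 6 of 6 libraries. The range of Nr3c1 did not overlap that of Esr1. The ratio of Nr3c1 to Nr3c2 within a library took 7.80, 6.66 and 8.57 in WT 1, 2 and 3 against 7.66, 6.26 and 7.75 in knockout 1, 2 and 3, and the groups overlapped. Using the longest annotated transcript in place of all exons gave the same order of the 4 genes.

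**Figure D2:**
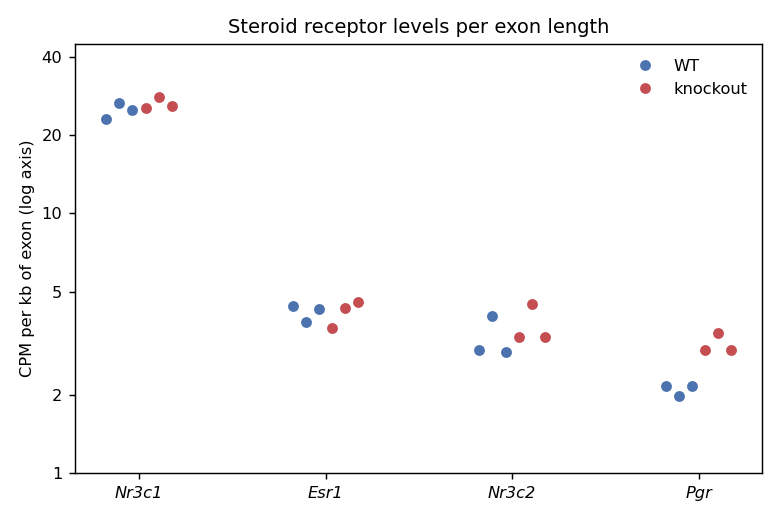
Level of the 4 steroid receptor messages as CPM per kb of exon on a log axis, ordered by their mean, with a point for each of the 6 libraries. Nr3c1 at 25.8 stands apart, Esr1 and Nr3c2 overlap, and for Pgr the knockout points lie above the WT points.

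The receptor levels are set here beside the summed markers of smooth muscle and fibroblasts in the same libraries. WT 1, with the lowest smooth muscle sum of 28163 CPM and the highest fibroblast sum of 6944 CPM, had the lowest Nr3c1. Knockout 2, with 43613 CPM of smooth muscle markers and 1532 CPM of fibroblast markers, had the highest Nr3c1, Nr3c2 and Pgr. WT 2, with 41839 CPM of smooth muscle markers, had the lowest Pgr of all, 16.9 CPM.

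Knockout 1 had 33358 CPM of smooth muscle markers and 5649 CPM of fibroblast markers, within the WT range of both, and 25.4 CPM of Pgr, above every WT library. Fibroblast, macrophage and endothelial sums overlapped between genotypes. Of the smooth muscle markers, 10 of 11 had a log2 fold change above 0 and 7 of 9 fibroblast markers had one below 0, and their part in the receptor levels was not tested. For Esr1, the highest libraries were knockout 3 and WT 1, which had fibroblast sums of 2051 and 6944 CPM.

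**Figure D3:**
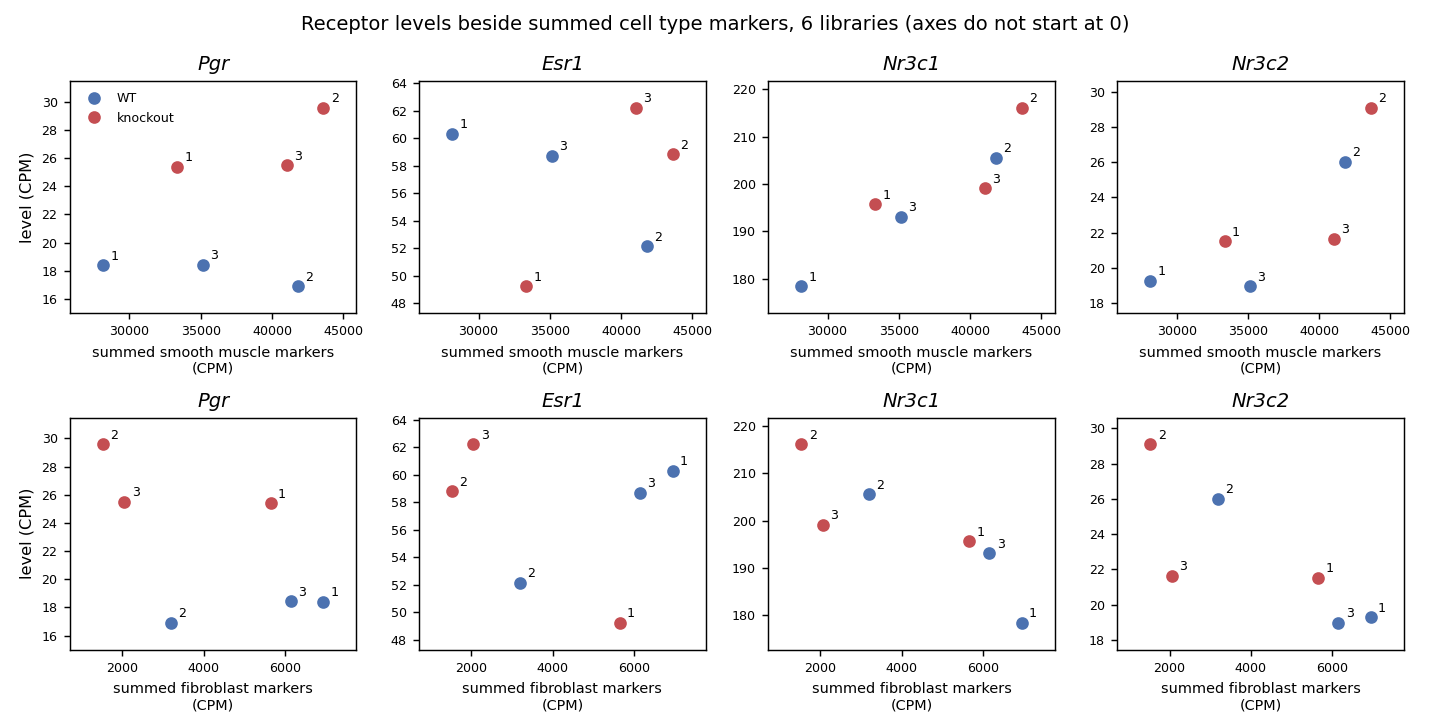
Level of each of the 4 receptors in CPM against the summed level of 11 smooth muscle markers (top row) or 9 fibroblast markers (bottom row), in CPM, with points numbered by replicate. Nr3c1 runs from 178 CPM in WT 1 to 216 CPM in knockout 2, the libraries with the lowest and the highest smooth muscle sum.

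Across all genes, edgeR's quasi-likelihood test called 0 of 16654 genes (0.0%) after Benjamini-Hochberg adjustment at 0.05. Without adjustment, 658 genes were higher in the knockout (3.95%) and 335 lower (2.01%) at p under 0.05. That balance rested on the libraries and the scaling. Without knockout 1 it turned, with 769 higher and 956 lower, and upper-quartile factors gave 538 higher and 415 lower. Without WT 2 the counts were 798 and 581, and with the replicate block 1189 and 918. DESeq2 called 73 of 16324 genes (0.447%) after adjustment. The genes around the receptors are therefore described by counts and medians, with the 4 receptors left out, beside a median log2 fold change of -0.0022 over all genes tested.

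The membrane receptors of steroids, which act outside the nucleus, showed no common direction. Of 6 tested, 4 had log2 fold changes above 0 and 2 below, with a median of 0.02. None reached an unadjusted p of 0.05 in the edgeR fit to all 6 libraries. Pgrmc1 and Pgrmc2, the progesterone receptor membrane components, had log2 fold changes of 0.02 ± 0.09 and 0.01 ± 0.06 (SE). Gper1, the G protein-coupled estrogen receptor, had 2.56, 2.50 and 2.79 CPM in WT 1, 2 and 3 and 6.38, 2.01 and 2.09 CPM in knockout 1, 2 and 3. Its log2 fold change of 0.40 ± 0.46 rested on knockout 1 and was -0.36 without it. Paqr7, a membrane progestin receptor with the smallest p of the list, had -0.29 ± 0.16 (edgeR adjusted p = 0.86). Its unadjusted p was under 0.05 in 3 of 14 fits, those without WT 1 and without knockout 1 among them.

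Among the other nuclear receptors, 29 of 44 listed passed the filter, and 16 had log2 fold changes above 0 and 13 below. Their median was 0.12, and it ran from 0.020 without WT 2 to 0.13 without WT 3. At unadjusted p under 0.05 in edgeR, 4 were higher and 0 lower, beside 3.95% and 2.01% of all genes. DESeq2 called 0 after adjustment. Thra, a thyroid hormone receptor, had 133, 166 and 143 CPM in WT 1, 2 and 3 and 177, 253 and 197 CPM in knockout 1, 2 and 3. Its groups did not overlap, and its log2 fold change was 0.51 ± 0.15 (SE, edgeR adjusted p = 0.78). The annotated span of Thra overlaps that of Nr1d1 on the other strand, and how reads there were divided was not tested. Rxra, a partner with which many nuclear receptors pair, had 0.19 ± 0.05 (adjusted p = 0.78 in edgeR), Rora 0.21 ± 0.08 and Nr2c2 0.20 ± 0.06.

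Thra and Rxra kept an unadjusted p under 0.05 in 14 of 14 fits, and without WT 2 the list had 2 higher genes at that level, these same genes, and 2 lower, Pparg and Nr2f2. The fits without WT 1, without knockout 1 and with the replicate block also had 2 lower genes each, where the fit to all 6 libraries had 0. Every knockout library was above every WT library for 5 of the 29, namely these 4 and Rarb, beside 6.48% of all tested genes. Rarb, Thra, Rora and Nr2c2 were named after their values were seen. Esrra, Nr2f2, Rara, Pparg and Nr1d1, named by rule, had log2 fold changes from -0.47 ± 0.34 for Pparg to 0.12 ± 0.55 for Nr1d1, and their groups overlapped.

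**Figure D4:**
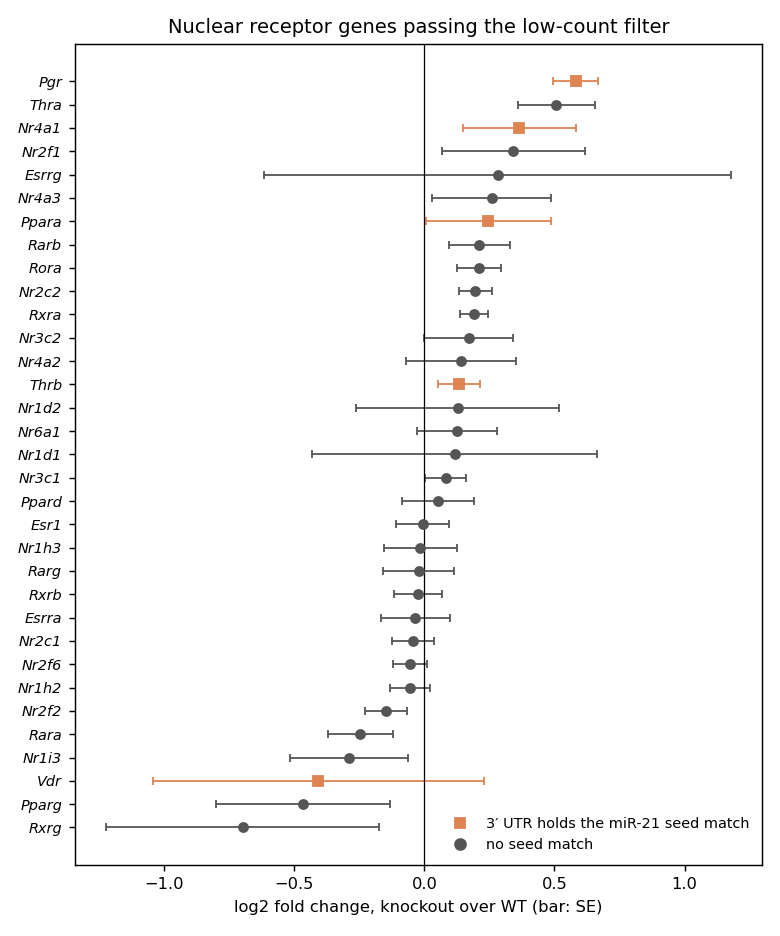
Log2 fold change, knockout over WT, with its SE for the 33 nuclear receptor genes that passed the filter, ordered by value. Squares mark genes with the miR-21 seed match in the 3′ UTR, with Pgr at 0.58 the highest and Vdr at -0.41 among the lowest.

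Of the 29 other nuclear receptors tested, 4 held the miR-21 seed match, and so did Pgrmc2 among the membrane receptors. Their sites are shown to compare with that of Pgr, with the 7 matching bases in capitals. The windows lie on GRCm38 at chr14:18037066-18037095 and chr14:18038039-18038068 (Thrb, plus strand), chr15:85801818-85801847 (Ppara, plus strand), chr15:97855318-97855347 (Vdr, minus strand), chr15:101274527-101274556 (Nr4a1, plus strand) and chr3:41067476-41067505 (Pgrmc2, minus strand). Each lies in the last exon of its transcript. These genes were named after their values were seen, except Nr4a1 and Pgrmc2.
Thrb first site: caggtcctaaaATAAGCTtataattttcct
Thrb second site: cataggtactcATAAGCTtaaattctaaaa
Ppara site: agaatagtttgATAAGCTatcccatcactc
Vdr site: tctgaaagttgATAAGCTagttcgactcct
Nr4a1 site: ctctgttgtaaATAAGCTgacgctactgta
Pgrmc2 site: caataaaccaaATAAGCTcgagtcggactc

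The Ppara and Vdr sites are followed by an adenine and so match the longer form, which the Pgr site does not. Ppara, a fatty acid-sensing receptor, had a log2 fold change of 0.25 ± 0.24 (SE), and Vdr, the vitamin D receptor, had -0.41 ± 0.64. Thrb, which carries 2 sites, had 0.13 ± 0.08. Nr4a1, an orphan receptor of the immediate early genes, had 1092, 1423 and 1700 CPM in WT 1, 2 and 3 and 1529, 2295 and 1604 CPM in knockout 1, 2 and 3, with a log2 fold change of 0.36 ± 0.22. The groups overlapped for all 5 of these genes, unlike Pgr. Whether the number or length of the matches bears on these fold changes was not tested.

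Among the chaperones that hold unliganded receptors, no gene passed the test. Of 15 tested, 11 had log2 fold changes above 0 and 4 below, with a median of 0.05. In the edgeR fit to all 6 libraries 0 reached an unadjusted p of 0.05, and in DESeq2 0 reached an adjusted p of 0.05. At unadjusted p under 0.05 in edgeR, 2 were higher without WT 3 and 1 without knockout 1. Over all genes those fits had 491 and 769 higher. Hsp90ab1, the heat shock protein that binds the receptors directly, had 0.03 ± 0.09 (SE), and its co-chaperones Ptges3 and Fkbp4 had 0.05 ± 0.06 and 0.13 ± 0.12. Fkbp5, a co-chaperone that glucocorticoids induce, had 35.3, 20.3 and 56.3 CPM in WT 1, 2 and 3 and 31.8, 28.0 and 36.6 CPM in knockout 1, 2 and 3. WT libraries held both its lowest and its highest level. Hspa8, with the smallest p of the list, had 0.21 ± 0.13 (edgeR adjusted p = 0.86).

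The coregulators that receptors recruit to DNA had more members on the higher side. Of 17 tested, 13 had log2 fold changes above 0 and 4 below, with a median of 0.06. At unadjusted p under 0.05 in edgeR, 5 were higher, beside 3.95% of all genes, and 0 lower. None passed the adjusted threshold in edgeR or DESeq2. Ep300, a histone acetyltransferase, had 48.5, 49.2 and 48.4 CPM in WT 1, 2 and 3 and 56.1, 59.6 and 55.4 CPM in knockout 1, 2 and 3, a log2 fold change of 0.23 ± 0.05 (SE, edgeR adjusted p = 0.75).

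Ncoa2, a steroid receptor coactivator, had 34.4, 33.6 and 36.1 CPM in WT 1, 2 and 3 and 41, 40.5 and 39.4 CPM in knockout 1, 2 and 3. Its log2 fold change was 0.21 ± 0.06 (SE). The groups did not overlap for Ep300 or Ncoa2, nor for the related coactivators Ncoa1 (0.15 ± 0.06) and Ncoa3 (0.25 ± 0.07). Every knockout library was thus above every WT library for 4 of the 17, beside 6.48% of all tested genes. Phb2, a repressor of estrogen receptor activity named after its values were seen, had every knockout library below every WT library, with -0.09 ± 0.06, beside 5.6% of all tested genes. The count of 5 at unadjusted p, which also held Med1 (0.43 ± 0.16) and Crebbp (0.19 ± 0.08), fell to 3 without WT 3 and to 3 without knockout 2. Ep300, Ncoa2 and Ncoa3 were past it in 14 of 14 fits. Ncor1 and Nrip1, which repress receptor targets, had 0.10 ± 0.07 and -0.10 ± 0.09. Ncoa3, Med1 and Crebbp were named after their values were seen.

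Genes of steroid metabolism lay mostly on the lower side. Of 18 tested, 4 had log2 fold changes above 0 and 14 below, with a median of -0.09. In the edgeR fit to all 6 libraries 0 reached an unadjusted p of 0.05, and in DESeq2 0 reached an adjusted p of 0.05. At unadjusted p under 0.05 in edgeR, 3 were lower with the replicate block, 2 without WT 2 and 2 without knockout 1. Over all genes those fits had 918, 581 and 956 lower. Hsd11b1, which regenerates active glucocorticoid, had 3.35, 0.565 and 1.87 CPM in WT 1, 2 and 3 and 4.16, 0.595 and 1.31 CPM in knockout 1, 2 and 3. Replicates of a genotype differed more than the genotypes did. Cyp1b1, an estrogen-hydroxylating enzyme named after its values were seen, had 279, 137 and 159 CPM in WT 1, 2 and 3 and 214, 100.01 and 130 CPM in knockout 1, 2 and 3. Both genes were highest in WT 1 and knockout 1 and lowest in WT 2 and knockout 2 within their groups, and the fibroblast markers, whose median log2 fold change was -0.44, had their lowest sums in WT 2 and knockout 2 too. Their part in these levels was not tested. Hsd11b2, which inactivates glucocorticoid where Nr3c2 responds to aldosterone, had at most 0.143 CPM and did not pass the filter. Srd5a1, a steroid 5-alpha-reductase, had -0.48 ± 0.30 (SE), and Tspo, a mitochondrial cholesterol-binding protein with the smallest p of the list, had -0.16 ± 0.08 (edgeR adjusted p = 0.86). Cyp19a1, Cyp11a1 and Sts were not analysed here.

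The target genes of Nr3c1 did not move together. Of 22 glucocorticoid receptor targets tested, 11 had log2 fold changes above 0 and 11 below, with a median of 0.01. Bcl6, a transcriptional repressor, was the only gene of the list at unadjusted p under 0.05 in edgeR, with 0.26 ± 0.11 (SE, adjusted p = 0.83). Of all genes, 3.95% were higher and 2.01% lower at that level. The list had 4 higher genes at that level without WT 3 and 3 lower genes without WT 2. Over all genes those fits had 491 higher and 581 lower. DESeq2 called 0 of the list. Tsc22d3 (GILZ, a widely used glucocorticoid reporter gene) had 30.9, 29.6 and 58.1 CPM in WT 1, 2 and 3 and 38.6, 33.8 and 34.0 CPM in knockout 1, 2 and 3. WT 3 stood above all other libraries for Tsc22d3, as it did for Fkbp5. Without WT 3 the median of the list was 0.23. Zbtb16 had 0.51 ± 0.31, Sgk1 0.19 ± 0.22, Dusp1 0.22 ± 0.16, Per1 0.27 ± 0.31, Klf9 0.08 ± 0.19 and Mt2 -0.42 ± 0.28.

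Among 12 mineralocorticoid receptor targets tested, 4 had log2 fold changes above 0 and 8 below, with a median of -0.15. Atp1b1, the beta subunit of the sodium pump, had 67.6, 52.5 and 64.1 CPM in WT 1, 2 and 3 and 43.6, 31.0 and 32.3 CPM in knockout 1, 2 and 3. Every knockout library lay below every WT library, as in 5.6% of all genes, and the log2 fold change was -0.79 ± 0.16 (SE). It was called by DESeq2 (adjusted p = 0.00227), as were 0.447% of all genes there, and not by edgeR (adjusted p = 0.64). This list was chosen with earlier results of these data known, so the p-values of Atp1b1 are a description. Scnn1a, a subunit of the epithelial sodium channel, had -0.29 ± 0.25, and Pgf, a placental growth factor gene, had -0.21 ± 0.10. Pgf also had every knockout library below every WT library, so that 2 of the 12 targets did, beside 5.6% of all genes. The median of the list was 0.0036 without WT 3.

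Among 14 estrogen receptor targets tested besides Pgr, 4 had log2 fold changes above 0 and 10 below, with a median of -0.12, while Pgr, a textbook target of Esr1, was at 0.58. Prlr, the prolactin receptor, had 3.09, 1.87 and 3.11 CPM in WT 1, 2 and 3 and 0.375, 0.481 and 0.487 CPM in knockout 1, 2 and 3. Every knockout library lay below every WT library, as in 5.6% of all genes, and its log2 fold change was -2.57 ± 0.29 (SE). It was called by DESeq2 (adjusted p = 2.2e-09), as were 0.447% of all genes there, and not by edgeR (adjusted p = 0.22). The list of estrogen receptor targets was also chosen with earlier results of these data known, so the p-values of Prlr are a description. Cxcl12, a chemokine, had -0.47 ± 0.41, Igf1 -0.71 ± 0.54 and Ctsd -0.08 ± 0.10, and their groups overlapped. Cxcl12 and Igf1 were highest in WT 1 and lower in WT 2, knockout 2 and knockout 3, the libraries with the smaller fibroblast sums. The part of fibroblasts in these levels was not tested. Greb1 did not pass the filter.

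Among 13 progesterone receptor targets tested, 5 had log2 fold changes above 0 and 8 below, with a median of -0.10, beside the higher level of Pgr itself. In the edgeR fit to all 6 libraries 0 of them reached an unadjusted p of 0.05, and DESeq2 called 0. Other edgeR fits differed, such as 2 lower with the replicate block and 2 higher without WT 3. Over all genes those fits had 918 lower and 491 higher. Tnfsf11 (RANKL), a cytokine that progesterone induces in breast, had the smallest p of the list, with -1.08 ± 0.58 (SE, edgeR adjusted p = 0.86). Areg had 0.13 ± 0.53, Hand2 0.04 ± 0.19 and Foxo1 -0.02 ± 0.10. These target lists come largely from other tissues, and some genes stand in several of them.

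**Figure D5:**
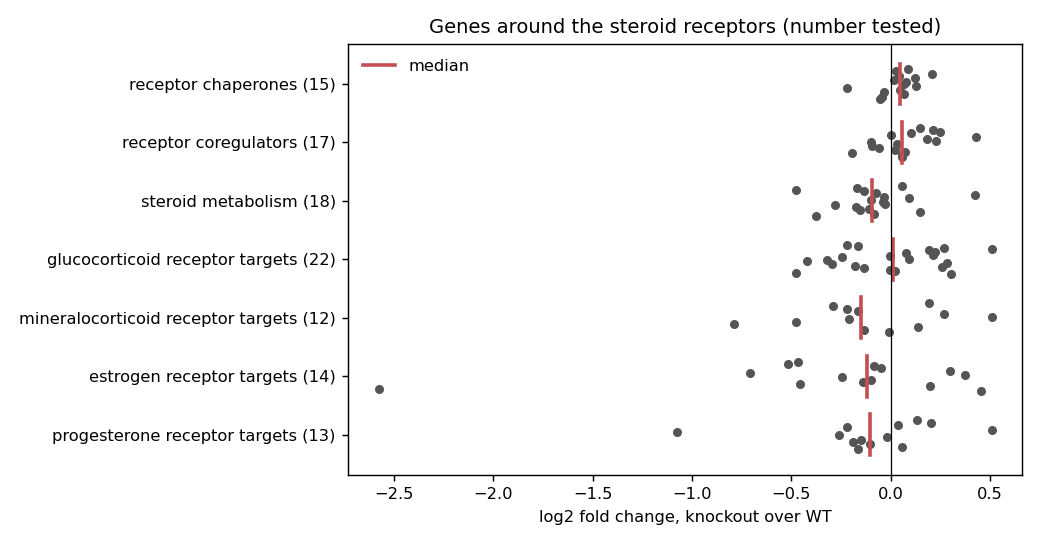
Log2 fold change, knockout over WT, of each tested gene (points) in 7 lists around the steroid receptors, with the median of each list as a vertical bar and the number tested in brackets. Medians run from -0.15 for mineralocorticoid receptor targets to 0.06 for coregulators, and the point at -2.57 is Prlr.

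The nearest tested genes on either side of Pgr lay in opposite directions from each other. Gm16485, the nearest tested gene after Pgr at 3.18 kb, had 1.34, 1.72 and 1.48 CPM in WT 1, 2 and 3 and 1.85, 1.76 and 1.74 CPM in knockout 1, 2 and 3. Every knockout library was above every WT library by a small margin, as in 6.48% of all tested genes. The log2 fold change of Gm16485 was 0.24 ± 0.19 (SE, edgeR adjusted p = 0.87), and its 3′ UTR of 3291 bases held 1 copy of ATAAGCT. Trpc6, a cation channel gene and the nearest tested gene before Pgr at 219 kb, had 1.74, 0.835 and 0.968 CPM in WT 1, 2 and 3 and 0.375, 0.732 and 0.459 CPM in knockout 1, 2 and 3. Every knockout library of Trpc6 lay below every WT library, as in 5.6% of all tested genes. Its log2 fold change was -1.16 ± 0.40 (edgeR adjusted p = 0.80), the opposite direction to Pgr.

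Beside Esr1, the nearest tested genes Armt1 and Syne1 had log2 fold changes of -0.15 ± 0.14 and 0.32 ± 0.13 (SE), with overlapping groups. Beside Nr3c1, Gm15337 was at most 0.305 CPM and Yipf5 had -0.04 ± 0.05. Beside Nr3c2, Gm7990, a pseudogene whose reads may be shared with its parent, had -0.02 ± 0.31 and Arhgap10, at 5.35 kb, had -0.02 ± 0.11. None of these genes passed the adjusted threshold in edgeR or DESeq2.

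Over the 6 libraries, the genes whose log2 CPM followed each receptor most closely were ranked among 11444 genes by Pearson r, as a description of libraries that share depth and makeup. For Pgr they were Fbxo38 (r = 0.993), Snrnp200 (0.991), Epc1 (0.990), Aff1 (0.988) and Gmeb2 (0.987). For Esr1 they were Snx5 (0.989), Triap1, Ric8b, Actr10 and Nedd1 (0.977). For Nr3c1 they were Trim27 (0.996), Id4, Sft2d2, Itpkb and Gabbr1 (0.989). For Nr3c2 they were Prkacb (0.994), Rnf14, Dsp, Ppp6r1 and Paqr6 (0.980). The 4 sets had no gene in common, but with 5 genes of 11444 in each, nothing is read from that. The membrane progestin receptor gene Paqr6 was the only steroid receptor of any kind among them.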

How the data were processed

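The authors deposited 1 table of expected counts (estimated counts, not normalized) per gene for the 6 samples, and 43.6% to 54.3% of its values per library are exactly whole. The submitters' processing notes name mm10, STAR 2.6 and DESeq2 without a role. Per the labels and the file headers, the annotation and the tool that made these estimated counts is not given in the sources used here. Estimated counts divide shared reads among similar genes, and overlapping genes are uncertain. Columns were assigned by the sample code in their names, and 0 of the per-sample columns had no sample. Libraries within a group differed by more than counting noise, with a mean chi-square of 31.2 to 109 per gene, and none was merged.

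Counts were rounded, filtered with filterByExpr (16654 genes kept), scaled by TMM (factors 0.987 to 1.02) and tested, knockout against WT, by edgeR 4.0.16 (R 4.3.3) with its robust quasi-likelihood F test, two-sided, adjusted by Benjamini-Hochberg at 0.05. The SE of a log2 fold change was its absolute value divided by the square root of the F statistic, with a median of 0.136. On simulated counts for this comparison over 16654 genes, recovery was 35.8% for 67 genes at a 1.5-fold change. It was 71.6% for 67 genes at 2-fold and 93.9% for 66 genes at 4-fold, and 8 calls were false. The simulated counts were drawn independently for each gene, without variation shared between genes in a library. These rates therefore need not hold in the real libraries.

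Genes were matched to GENCODE M21 (GRCm38, the assembly of mm10): 21548 by position, 1347 by symbol and 61 not. For each gene the 3′ UTR of the transcript with the best APPRIS tag, then the longest, was searched for ATAAGCT, ATAAGCTA and TAAGCTA on the sense strand. The mature microRNA came from RefSeq and 1 of 1 matched by name. Exon length is the union of annotated exons.

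The receptors and all gene lists were chosen with earlier results of these data known, and 2 list genes are not reported here. Genes named by rule were the receptors, symbols chosen for each list, the member of each list with the smallest edgeR p, the nearest tested gene on each side of a receptor, and the 5 genes of highest Pearson r with it whose log2 CPM averaged 2 or more. The fits were repeated with upper-quartile factors, with DESeq2 size factors, without the filter, with 1 CPM required in 3 samples, in DESeq2 1.42.0, in limma 3.58.1 (voom with sample weights), with a replicate block, and with each library left out. Figures were drawn with matplotlib 3.10.9 from tables made with pandas 2.3.3 in Python 3.11.15.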

Additional observations from a re-analysis of the deposited data

How the results depend on the processing

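The number of genes called was 0 in the edgeR fit, 1 with the replicate block, 73 in DESeq2 and 0 to 1 as each library was left out. Replicate numbers do not pair the samples by any label, and deviations of same-numbered libraries correlated at 0.289, 0.317 and -0.0263, so the replicate block is given only as a check. Of the 4 receptors, Pgr, Nr3c1 and Nr3c2 stayed above 0 in all 14 fits and Esr1 did not keep a sign. The median of the nuclear receptors was 0.016 with voom and 0.020 to 0.13 as each library was left out. With each library left out, medians ran from 0.052 to 0.10 for coregulators, -0.11 to -0.016 for steroid metabolism, -0.15 to 0.23 for glucocorticoid receptor targets, and -0.14 to 0.0036 for mineralocorticoid receptor targets. They also crossed 0 for progesterone receptor targets (-0.23 to 0.081) and membrane receptors (-0.031 to 0.053). The cause was not tested.

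These log2 fold changes changed sign as libraries were left out: Gper1 (-0.36 to 0.68), Pgrmc1 (-0.050 to 0.056), Pgrmc2 (-0.012 to 0.049), Esrra (-0.18 to 0.058), Nr1d1 (-0.32 to 0.48), Hsp90ab1 (-0.0095 to 0.087), Fkbp4 (-0.0013 to 0.24), Fkbp5 (-0.52 to 0.21), Hsd11b1 (-0.996 to 0.67), Tsc22d3 (-0.34 to 0.23), Per1 (-0.024 to 0.53), Klf9 (-0.051 to 0.24), Areg (-0.17 to 1.09), Hand2 (-0.12 to 0.19), Foxo1 (-0.091 to 0.065) and Arhgap10 (-0.099 to 0.055). With voom, Gper1 was -0.13, Hsd11b1 -0.33, Areg -0.21, Hand2 -0.054 and Armt1 0.047. Hsd11b1 was -0.057 with the replicate block, and Pgrmc2 was -0.0017 with upper-quartile factors. With 3 libraries a group and 0 calls in edgeR, differences of the size of a typical SE, 0.136, were not detectable. Far larger ones were not called by edgeR either, such as -0.79 for Atp1b1 and -2.57 for Prlr.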

Other observations

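The nuclear receptors of the circadian clock varied more between replicates than between genotypes. Nr1d1 (REV-ERB alpha) had 97.5, 404 and 465 CPM in WT 1, 2 and 3 and 259, 391 and 397 CPM in knockout 1, 2 and 3. Nr1d2, its close relative, had 77.9, 195 and 243 CPM in WT and 172, 183 and 210 CPM in the knockout. Per1, a clock gene that glucocorticoids also induce, had 15, 31.1 and 36.4 CPM in WT and 29.3, 34.6 and 35.9 CPM in the knockout. WT 1 was lowest for all 3 genes, and it also had the lowest Nr3c1. The labels used here give no time of day. Nr1d2 was named after its values were seen.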
